A study of Rattus norvegicus with 8 samples.

Results

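The cell cycle genes were 34 genes chosen by name and not by their values, 23 that act mainly in G2 and mitosis and 11 that act mainly in S phase, when DNA is copied. Of these, 30 had a probe set of their own on the array (a set of probes annotated with that gene symbol alone), 21 of the mitosis genes and 9 of the S phase genes, out of 14497 genes and 28826 probe sets measured. Mki67, Cenpf, Mcm3 and Mcm4 had none, so that no values are given for them. Where a gene had several probe sets, which was so for 3 members, the one with the highest mean over all arrays was used.

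The arrays measured total RNA of the ipsilateral L5 dorsal root ganglion (DRG) of adult male Wistar rats, 14 days after the L5 spinal nerve had been cut. In one group an osmotic pump delivered MS-275, a histone deacetylase inhibitor (HDACI) selective for class I enzymes, intrathecally at 30 nmol per day from before the injury, and in the other group the pump held the DMSO and saline vehicle. Each group had 4 biological replicates with 1 array each, and since every rat had been injured, no array shows the uninjured ganglion. The comparison asked whether HDACI changed gene expression in the injured DRG.

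Dividing cells pass through G1, S, G2 and M phase under cyclin-dependent kinases, whose cyclins are made and destroyed in turn. Genes for DNA replication are switched on by E2F factors at the entry to S phase, and those for spindle assembly and chromosome separation are switched on later, through promoters with CCAAT boxes and a short element named the cell cycle genes homology region (CHR). Sensory neurons do not divide. After nerve injury satellite glia, Schwann cells, macrophages and other immune cells can divide within the ganglion, and a signal for these genes in whole tissue comes from whichever cells are cycling. In such tissue fewer cycling cells and less RNA per cycling cell cannot be told apart.

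All 12 sensory neuron markers, 6 satellite glia markers and 6 Schwann cell markers that were measured lay above the 30th percentile of all probe sets (6.95 on the log2 scale), as did all 30 cell cycle genes. Of the marker lists, skeletal muscle genes had the widest range between the arrays: the mean of 11 of them, each centred on its own mean, was 2.56 in vehicle replicate 1, 1.52 in vehicle replicate 2 and 0.74 in vehicle replicate 4, and between -1.17 and -0.82 in the other arrays. Vehicle replicate 1 was the array highest in most cell cycle genes too. Results that this touches are given with the muscle score as a covariate and without that array.

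No cell cycle gene passed the test of a difference between HDACI and vehicle. By limma, 0 of 30 members had an adjusted p under 0.05 (0% of all probe sets did), and 0 of 30 had an unadjusted p under 0.05, against 3.55% of all probe sets. Of the members 20 were nominally higher in HDACI and 10 lower, while 46.7% of all probe sets were lower. The median difference, HDACI minus vehicle, was 0.0035 (log2) over the 21 mitosis genes and 0.0020 over the 9 S phase genes, and 0.0055 over all probe sets. The HDACI and vehicle arrays overlapped for all 30 members, whereas 2.1% of all probe sets had groups that did not overlap.

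The precision limited what the comparison could show. The SE was larger than the difference itself in all 30 members. The 95% confidence intervals of the members reached from -0.45 (Nusap1) to 0.48 (Bub1) on the log2 scale, that is, from 0.731-fold to 1.39-fold. Changes inside the interval of a gene remained compatible with its values. Differences ran from -0.11 in Nusap1 to 0.09 in Aurkb. The smallest unadjusted p was 0.364 (Aurka) among the mitosis genes and 0.675 (Mcm5) among the S phase genes, and the adjusted p by limma was 1.0 for each member.

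**Figure D1:**
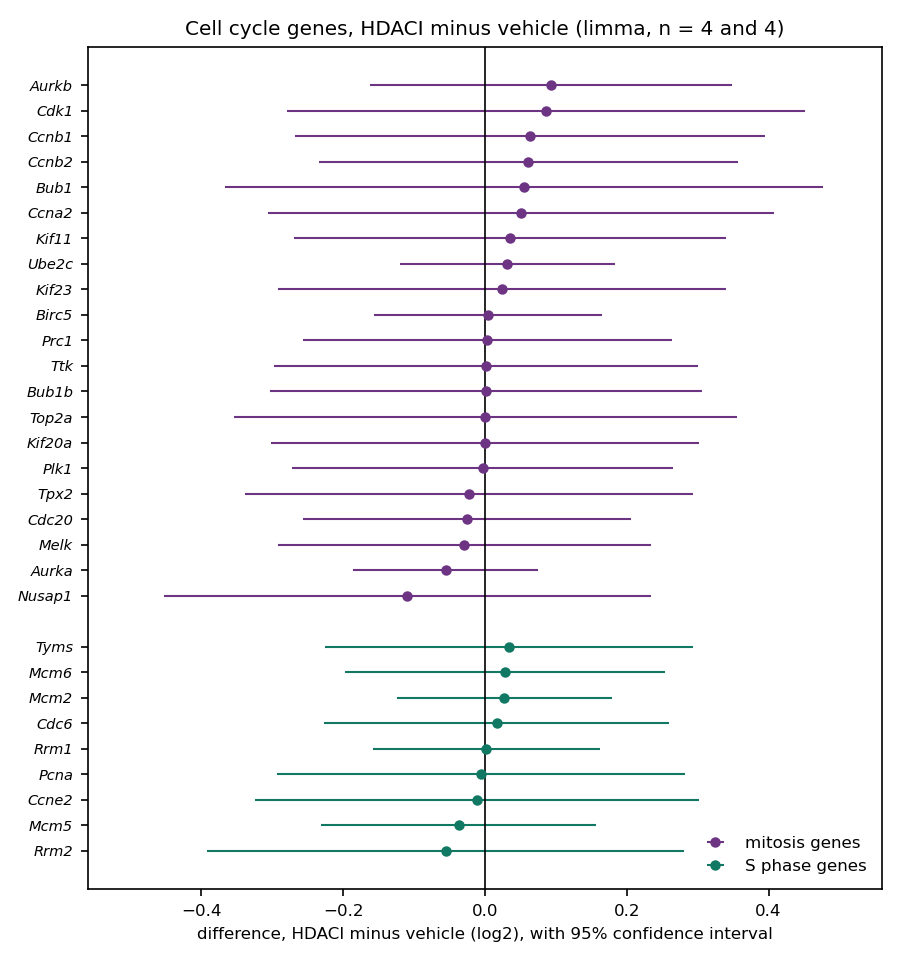
Each point is the difference of 1 gene between HDACI and vehicle (log2, limma, 4 arrays a group) with its 95% confidence interval, purple for the 21 mitosis genes and green for the 9 S phase genes. Every interval includes 0.

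The kinase and cyclins that start mitosis varied widely between rats of either group. Cdk1, the kinase that drives entry into mitosis, measured 8.42, 8.44, 8.11 and 8.70 in HDACI replicates 1 to 4 and 8.77, 8.22, 8.09 and 8.26 in vehicle replicates 1 to 4 (log2 signal), a difference of 0.09 ± 0.16 (SE). Ccna2, cyclin A2, which serves both S phase and G2, measured 9.36, 9.38, 8.97 and 9.55 under HDACI against 9.64, 9.32, 9.02 and 9.08 under vehicle, a difference of 0.05 ± 0.16. For both genes HDACI replicate 4 and vehicle replicate 1 were the highest arrays, HDACI replicate 3 and vehicle replicate 3 were the lowest, and the groups overlapped throughout. Ccnb1 and Ccnb2, the B-type cyclins that bind Cdk1, differed by 0.06 ± 0.15 and 0.06 ± 0.13. Cdc20, which directs the destruction of cyclin B, differed by -0.02 ± 0.10.

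The kinases of the spindle and its checkpoint followed. Bub1, a checkpoint kinase at the kinetochore, had the largest SD of all members over the 8 arrays (0.292) and measured 8.81, 8.69, 8.41 and 9.11 under HDACI against 9.17, 8.63, 8.37 and 8.63 under vehicle. Aurkb, the kinase of the chromosomal passenger complex, measured 9.26, 9.18, 9.0 and 9.33 under HDACI against 9.36, 9.15, 8.85 and 9.03 under vehicle, the largest difference towards HDACI at 0.09 ± 0.11 (unadjusted p = 0.427, limma). In both genes a vehicle array was the highest of the 8 and another vehicle array was the lowest. Birc5, which is survivin and sits in the same complex as Aurkb, differed by 0.00 ± 0.07, Bub1b by 0.00 ± 0.13, Ttk, the kinase that starts checkpoint signalling, by 0.00 ± 0.13, and Plk1, which acts at centrosomes and kinetochores, by -0.00 ± 0.12. Melk, a kinase found in dividing cells, differed by -0.03 ± 0.12.

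Among the genes that build or move the spindle, Nusap1, which binds and bundles microtubules, measured 8.85, 8.80, 8.52 and 8.99 under HDACI against 9.28, 8.90, 8.56 and 8.86 under vehicle, the largest difference towards vehicle at -0.11 ± 0.15 (unadjusted p = 0.49, limma). Vehicle replicates 2, 3 and 4 lay within the range of the HDACI arrays, and vehicle replicate 1 alone was above it. Tpx2, which targets Aurka to the spindle, differed by -0.02 ± 0.14, and Prc1, which crosslinks the central spindle, by 0.00 ± 0.11. The motor genes Kif11, Kif20a and Kif23 differed by 0.04 ± 0.13, 0.00 ± 0.13 and 0.02 ± 0.14.

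Top2a, topoisomerase II alpha, which untangles sister chromosomes and is a common marker of cycling cells, measured 9.56, 9.59, 9.18 and 9.68 in HDACI replicates 1 to 4 and 9.88, 9.53, 9.16 and 9.43 in vehicle replicates 1 to 4. The lowest and the highest array were both vehicle arrays, 1.65-fold apart, and the group means differed by 0.00087 ± 0.16 (log2, SE).

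The S phase genes gave the same picture with smaller spreads. Pcna, the sliding clamp of DNA polymerase, measured 10.24, 10.16, 9.96 and 10.38 in HDACI replicates 1 to 4 and 10.53, 10.15, 9.97 and 10.12 in vehicle replicates 1 to 4, a difference of -0.01 ± 0.13. Rrm2, the regulated subunit of ribonucleotide reductase, had the largest SD of the S phase genes (0.231) and measured 10.12, 10.18, 9.76 and 10.18 under HDACI against 10.49, 10.02, 9.81 and 10.14 under vehicle. Tyms, thymidylate synthase, measured 9.51, 9.49, 9.34 and 9.77 under HDACI against 9.76, 9.51, 9.41 and 9.30 under vehicle. In these 3 genes vehicle replicate 1 and HDACI replicate 4 were the 2 highest arrays. Ccne2, cyclin E2, which acts with Cdk2 at the start of S phase, measured 8.11, 7.95, 7.80 and 8.23 under HDACI against 8.41, 8.02, 7.83 and 7.87 under vehicle. Rrm1, the partner of Rrm2, differed by 0.00 ± 0.07 and Cdc6, which loads the replicative helicase on DNA, by 0.02 ± 0.11.

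The Mcm genes encode that helicase and were among the least variable members. Mcm2 measured 9.54, 9.55, 9.46 and 9.46 under HDACI against 9.65, 9.41, 9.37 and 9.46 under vehicle, a difference of 0.03 ± 0.07, and its SD over the arrays was 0.0898. Mcm5 measured 8.75, 8.66, 8.59 and 8.68 under HDACI against 8.90, 8.81, 8.56 and 8.56 under vehicle, a difference of -0.04 ± 0.09 (unadjusted p = 0.675, limma). In Mcm2 the highest and the lowest array were both vehicle arrays, as in Mcm5, and HDACI replicate 4, among the 2 highest arrays in most members, was among the 3 lowest in Mcm2. Mcm6 differed by 0.03 ± 0.10.

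The cell cycle genes differed between individual arrays, with the same arrays at the top and the bottom for most genes. The mean of the 21 mitosis genes, each centred on its own mean, was 0.30 in vehicle replicate 1, 0.17 in HDACI replicate 4, 0.06 in HDACI replicate 1 and 0.02 in HDACI replicate 2. It was -0.02 in vehicle replicate 2, -0.08 in vehicle replicate 4, -0.21 in HDACI replicate 3 and -0.23 in vehicle replicate 3. Each group thus held 1 array high and 1 low in these genes, and the highest array lay 1.44-fold above the lowest. Vehicle replicate 1 was the highest array in 26 of 30 members, vehicle replicate 1 and HDACI replicate 4 were the top pair in 23, and HDACI replicate 3 and vehicle replicate 3 were the bottom pair in 21. One principal component held 90.3% of the variance of the members over the 8 arrays.

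**Figure D2:**
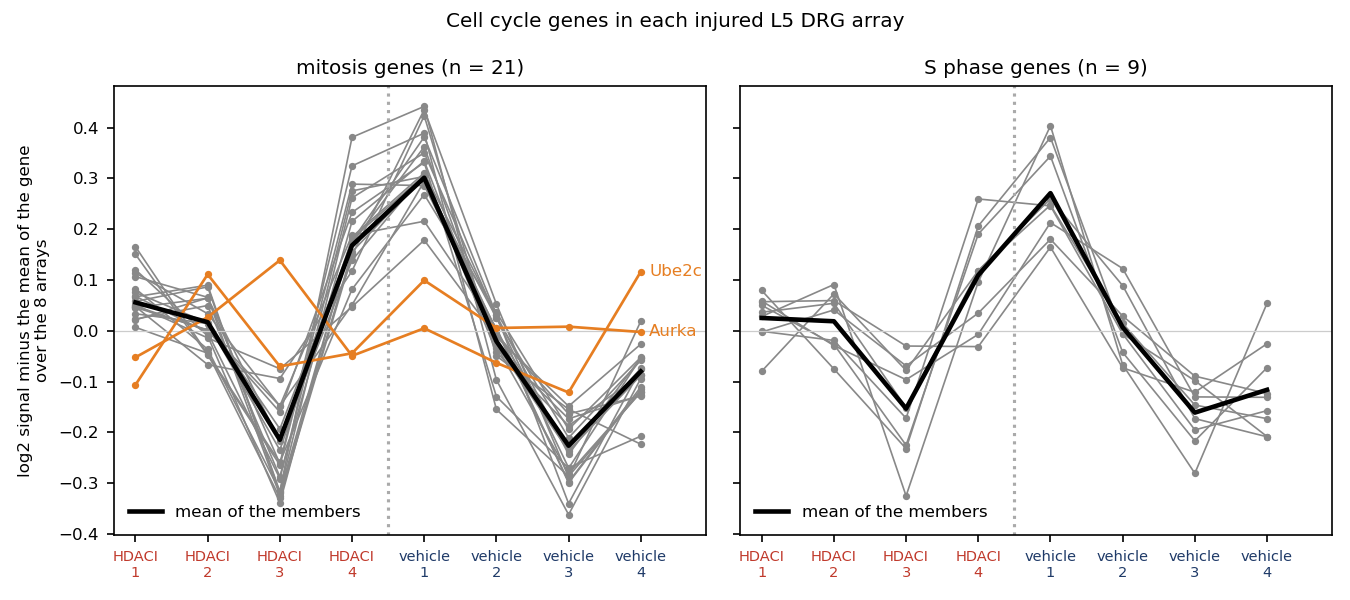
Each line is 1 gene over the 8 arrays, as log2 signal minus the gene's own mean, for the 21 mitosis genes (left) and the 9 S phase genes (right), with their mean in black. Vehicle replicate 1 is the highest array for 26 of 30 genes, and HDACI replicate 3 and vehicle replicate 3 are the 2 lowest for 18 of 21 mitosis genes and 3 of 9 S phase genes; Ube2c and Aurka are in orange.

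Over the 8 arrays the median Pearson r between 2 members was 0.923 for the 210 pairs of mitosis genes, 0.832 for the 36 pairs of S phase genes and 0.848 for the 189 pairs of 1 gene from each phase. Between all pairs of the 14497 genes it was 0.01. An r over 0.9 was found in 61.9% of the mitosis pairs, 25% of the S phase pairs and 34.4% of the mixed pairs, and in 0.365% of all gene pairs. These are descriptions over 8 arrays, and the genes of a pair share the same RNA, hybridization and normalization. With the group means removed the medians were 0.939, 0.849 and 0.866, so the covariation lay within the groups. It was 0.970 in the vehicle arrays alone and 0.940 in the HDACI arrays alone for mitosis pairs, and 0.925 and 0.728 for S phase pairs, from 4 arrays each.

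The members closest to the rest of the mitosis genes acted in mitosis in different roles. Kif11, the motor that pushes spindle poles apart, had an r of 0.991 with the mean of the other mitosis genes, Prc1 0.985, Plk1 0.982, Top2a 0.980 and Kif23 0.980. In all, 18 of 21 mitosis genes had an r over 0.9 with the mean of the others, against 0.836% of the genes outside the members with the mitosis mean. Of the S phase genes 4 of 9 did, namely Mcm6 (0.977), Ccne2 (0.963), Pcna (0.961) and Rrm1 (0.940), against 1.1% of the genes outside the members with the S phase mean. Ttk (0.864) fell short among the mitosis genes, and Mcm2 was the loosest S phase gene (0.736). Vehicle replicate 1 was highest in both.

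Aurka and Ube2c stood outside this pattern. Aurka, the centrosome kinase, measured 7.04, 7.26, 7.08 and 7.11 under HDACI against 7.25, 7.16, 7.16 and 7.15 under vehicle, with an r of 0.313 with the other mitosis genes. Ube2c, the ubiquitin-conjugating enzyme that works with the anaphase-promoting complex, measured 8.90, 8.98, 9.09 and 8.91 under HDACI against 8.96, 8.89, 8.83 and 9.07 under vehicle, with an r of -0.195. Ube2c was highest in HDACI replicate 3, an array among the 2 lowest for most members, and Aurka was highest in HDACI replicate 2. Both had small SDs (0.0761 and 0.0906) compared with a median of 0.204 over the mitosis genes, and both lay above the 30th percentile in level. With these 2 genes left out, every pair of mitosis genes had an r of at least 0.789. They were singled out after their values had been seen.

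**Figure D3:**
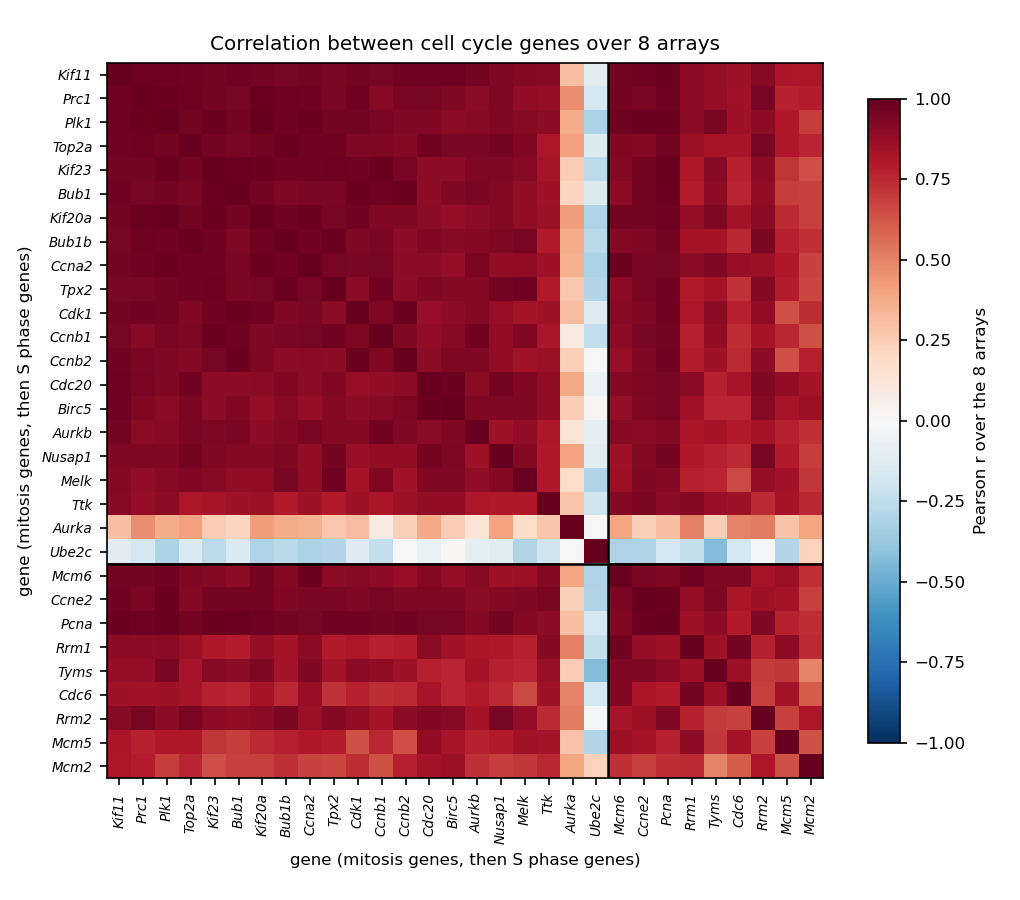
Each cell is the Pearson r between 2 genes over the 8 arrays (red positive, blue negative), with the 21 mitosis genes first and the 9 S phase genes after the black line, each ordered by correlation with its own phase. Aurka and Ube2c form the only pale bands, and Mcm2 and Mcm5 are paler than the other S phase genes.

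Single pairs were tested by exact permutation of the pairings over 8 arrays, two-sided, with Benjamini-Hochberg adjustment over 7 pairs. Of these, 4 came from the original list of pairs, and 3 replaced pairs with Mki67, which has no probe set, by pairs with Top2a after the values had been seen. Cdk1 and Ccnb1, the kinase and its cyclin, had r = 0.931 (exact p = 0.00151, adjusted 0.0053) and rho = 0.857 (exact p = 0.0107, adjusted 0.025). Pcna and Tyms had r = 0.892 (exact p = 0.00496, adjusted 0.0116) and rho = 0.881 (exact p = 0.00724, adjusted 0.025). Top2a and Pcna, one gene of each phase, had r = 0.959 (exact p = 0.000174, adjusted 0.00122) and rho = 0.952 (exact p = 0.00114, adjusted 0.00799). These 3 pairs passed the threshold.

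The other pairs did not pass. Top2a and Mcm2 had r = 0.762 (exact p = 0.0300, adjusted 0.0526) and rho = 0.643 (exact p = 0.0962, adjusted 0.168), and Mcm2 and Mcm5, subunits of 1 complex, had r = 0.640 (exact p = 0.0858, adjusted 0.120) and rho = 0.333 (exact p = 0.428, adjusted 0.499). Top2a had r = 0.346 with Cd68 of macrophages (exact p = 0.403, adjusted 0.403; rho = 0.333, exact p = 0.428, adjusted 0.499) and r = 0.498 with Ckm of skeletal muscle (exact p = 0.205, adjusted 0.239; rho = 0.119, exact p = 0.793, adjusted 0.793). Without the 2 arrays farthest from the median of the first gene, r was 0.828 for Cdk1 and Ccnb1, 0.626 for Pcna and Tyms, 0.953 for Top2a and Pcna, 0.725 for Top2a and Mcm2, -0.0574 for Mcm2 and Mcm5, 0.480 for Top2a and Cd68 and 0.320 for Top2a and Ckm. The relation of Mcm2 with Mcm5 thus rested on vehicle replicates 1 and 3. For the pairs Cdk1 with Ccnb1 and Pcna with Tyms the arrays left out were HDACI replicate 4 and vehicle replicate 1, and on the remaining 6 arrays the adjusted exact p was 0.175 and 0.343.

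The mean of the S phase genes put the arrays in the order of the mitosis mean, over a narrower range. The mean of the 9 S phase genes was 0.27 in vehicle replicate 1, 0.11 in HDACI replicate 4, 0.03 in HDACI replicate 1, 0.02 in HDACI replicate 2 and 0.01 in vehicle replicate 2. It was -0.12 in vehicle replicate 4, -0.15 in HDACI replicate 3 and -0.16 in vehicle replicate 3. The means of the 2 phases had r = 0.980 and rho = 1.0 over the 8 arrays, and the S phase mean changed by 0.796 per unit of the mitosis mean. The S phase mean spanned 1.35-fold. The median SD of a gene was 0.204 in the mitosis genes, a value that 10.6% of all probe sets exceeded, and 0.161 in the S phase genes, which 19.1% exceeded.

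The phases differed in which array was lowest for most of their genes. Vehicle replicate 4 was the lowest array in 5 of 9 S phase genes, namely Mcm5, Mcm6, Rrm1, Tyms and Cdc6, and in 1 of 21 mitosis genes, Ttk. HDACI replicate 3 or vehicle replicate 3 was the lowest in 19 of 21 mitosis genes and in 4 of 9 S phase genes. The gap between the 2 phase means was at most 0.07 on any array, which is small beside the SD of the mitosis mean within groups (0.16 in HDACI and 0.22 in vehicle). No difference between the phases was tested, since the genes of a phase are not replicates.

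**Figure D4:**
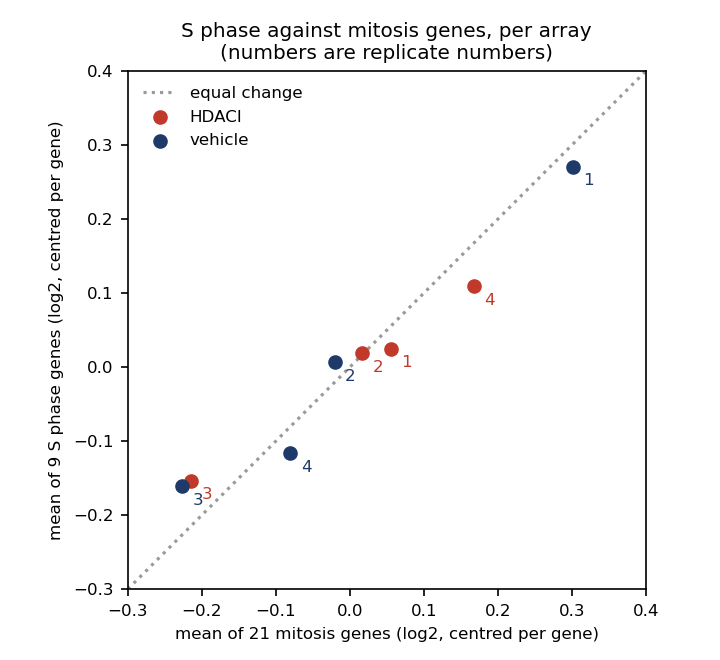
Each point is 1 array, placed by the mean of the 21 mitosis genes and the mean of the 9 S phase genes (log2, each gene centred on its own mean), coloured red for HDACI and dark blue for vehicle; the dotted line marks equal change. Both groups span the line from low (replicate 3) to high (HDACI replicate 4 and vehicle replicate 1).

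Other mitosis genes moved along with the mean of the mitosis members, and other replication genes followed that mean less closely. Of 58 further mitosis genes 39 were measured, and 20 of them (51.3%) had an r over 0.9 with the mean of the mitosis members. Their own mean had r = 0.995 with it. Of 40 further replication genes 34 were measured, 4 (11.8%) had an r over 0.9, and their mean had r = 0.865. The median r of a gene with the mitosis mean was 0.901 in the further mitosis genes, 2 of them negative. It was 0.603 in the further replication genes, 3 of them negative. These values set the replication genes against the mitosis mean and not against the S phase mean. Single genes differed in which was nearer: Pola2 had r = 0.964 with the S phase mean and 0.910 with the mitosis mean, and Rfc4 had 0.820 and 0.884. By limma 0 of these 39 and 0 of these 34 genes had an unadjusted p under 0.05 between HDACI and vehicle, against 3.55% of all probe sets. At that share lists of this size would hold few or none. Of the 39 and 34 genes 18 and 19 were nominally higher in HDACI, while 46.7% of all probe sets were lower. The smallest unadjusted p was 0.112 in the further mitosis genes, by limma, for Bub3, a checkpoint protein (difference 0.08 ± 0.05), followed by Cenpn of the centromere (-0.11 ± 0.06, unadjusted p = 0.119). In the further replication genes it was 0.136 by limma for Gins3 of the helicase complex (0.08 ± 0.05), followed by Rfc5, a subunit of the clamp loader (-0.08 ± 0.05, unadjusted p = 0.188).

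The genes outside the members most like the mitosis mean were Nek2, a centrosome kinase (r = 0.983), and Ect2, which positions the division furrow (0.981). They were followed by Alg13l1 (0.980), Hist1h2an (0.978), Tmpo (0.974), Nuf2 of the kinetochore (0.974), Ndufc2 (0.972), Hist1h2ail1 (0.970), Cep55, which acts in the last step of cell separation (0.970), and Dimt1 (0.969). The genes most like the S phase mean were Ndc80 of the kinetochore (0.989), the histone gene H2ac4 (0.988), the spindle gene Aspm (0.985), Cks1b (0.984), Alg13l1 (0.984), the linker histone gene H1f1 (0.982), Cdca2 (0.981), Hist1h2ail1 (0.979), the checkpoint gene Mad2l1 (0.977) and Tmem69 (0.976). Genes of mitosis and of histones thus led both, and no gene of the further replication list was among the 10 nearest to the S phase mean. Histone mRNA is made mainly in S phase. The mean of 23 core and linker histone genes, a list added after the values had been seen, had r = 0.988 with the mitosis mean, and 7 of them had an r over 0.9. Histone genes have near-identical copies, so single histone probe sets may report several genes.

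By Pearson r, marker lists of cell types tracked the cell cycle genes less closely. Over the 8 arrays r with the mitosis mean was 0.588 for 6 satellite glia genes, 0.478 for 8 fibroblast genes, 0.468 for 14 macrophage genes, 0.288 for 9 T cell genes, 0.262 for 7 endothelial genes, 0.131 for 5 erythroid genes, -0.200 for 6 Schwann cell genes and -0.732 for 12 sensory neuron genes. In the same order Spearman rho was 0.833, 0.524, 0.262, 0.333, 0.381, 0.214, -0.0476 and -0.667. By rank the satellite glia list was thus no farther from the mitosis mean than the further replication genes (rho = 0.786). No gene of these lists had an r over 0.9 with the mitosis mean, against 0.836% of all genes outside the members. At that share lists this short would hold few or none, so the count does not set them apart. In the other direction, 11 of 12 sensory neuron genes had a negative r, with Uchl1 at -0.918. The neuronal mean was lowest in vehicle replicate 1 (-0.14) and HDACI replicate 4 (-0.07), the 2 arrays highest in cell cycle genes. HDACI replicate 4 was also highest in the macrophage mean (0.42), the fibroblast mean (0.55) and the mean of 6 osteoclast-like genes (2.03), a list added after the values had been seen, which had r = 0.574 with the mitosis mean. Vehicle replicate 1 was second in the macrophage mean (0.12). HDACI replicate 3, among the lowest in cell cycle genes, came next in the macrophage mean (0.08). The part of these cells in the covariation was not tested.

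Skeletal muscle genes were nominally lower in HDACI, and the comparison of the groups was repeated with their mean as a covariate. All 11 of them had an unadjusted p under 0.05 by limma, lower in HDACI, against 3.55% of all probe sets, and 0 passed adjustment. Their mean had r = 0.476 (rho = 0.190) with the mitosis mean and r = -0.698 with group (HDACI as 1, vehicle as 0). The score was thus partly confounded with group. An effect of muscle on the comparison cannot be told apart from this overlap or from vehicle replicate 1. With this muscle score as a covariate, the median difference of the members was 0.24 over the mitosis genes and 0.21 over the S phase genes. Of them 20 of 21 and 9 of 9 were nominally higher in HDACI, whereas 50.4% of all probe sets were higher. Since the members moved together over the arrays, these are not counts of independent genes and cannot be weighed against that share. In that fit Aurkb (0.33, unadjusted p = 0.0199) and Kif11 (0.32, unadjusted p = 0.0464) had an unadjusted p under 0.05, against 4.16% of all probe sets, and the adjusted p by limma was 1.0 for every member. Without vehicle replicate 1, which was the highest array in both muscle and cell cycle genes, the median differences were 0.11 and 0.11. The median over all probe sets was 0.0020. In that fit the differences ran from -0.03 to 0.23 in the mitosis genes and from 0.03 to 0.12 in the S phase genes. By limma 0 of 30 members had an unadjusted p under 0.05, against 1758 of 28826 probe sets. Without vehicle replicate 1 and HDACI replicate 4 the median differences were 0.06 and 0.04, and 0.0080 over all probe sets. The differences then ran from -0.05 to 0.14 in the mitosis genes and from 0.02 to 0.10 in the S phase genes. The smallest unadjusted p of a member was 0.0934 by limma.

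**Figure D5:**
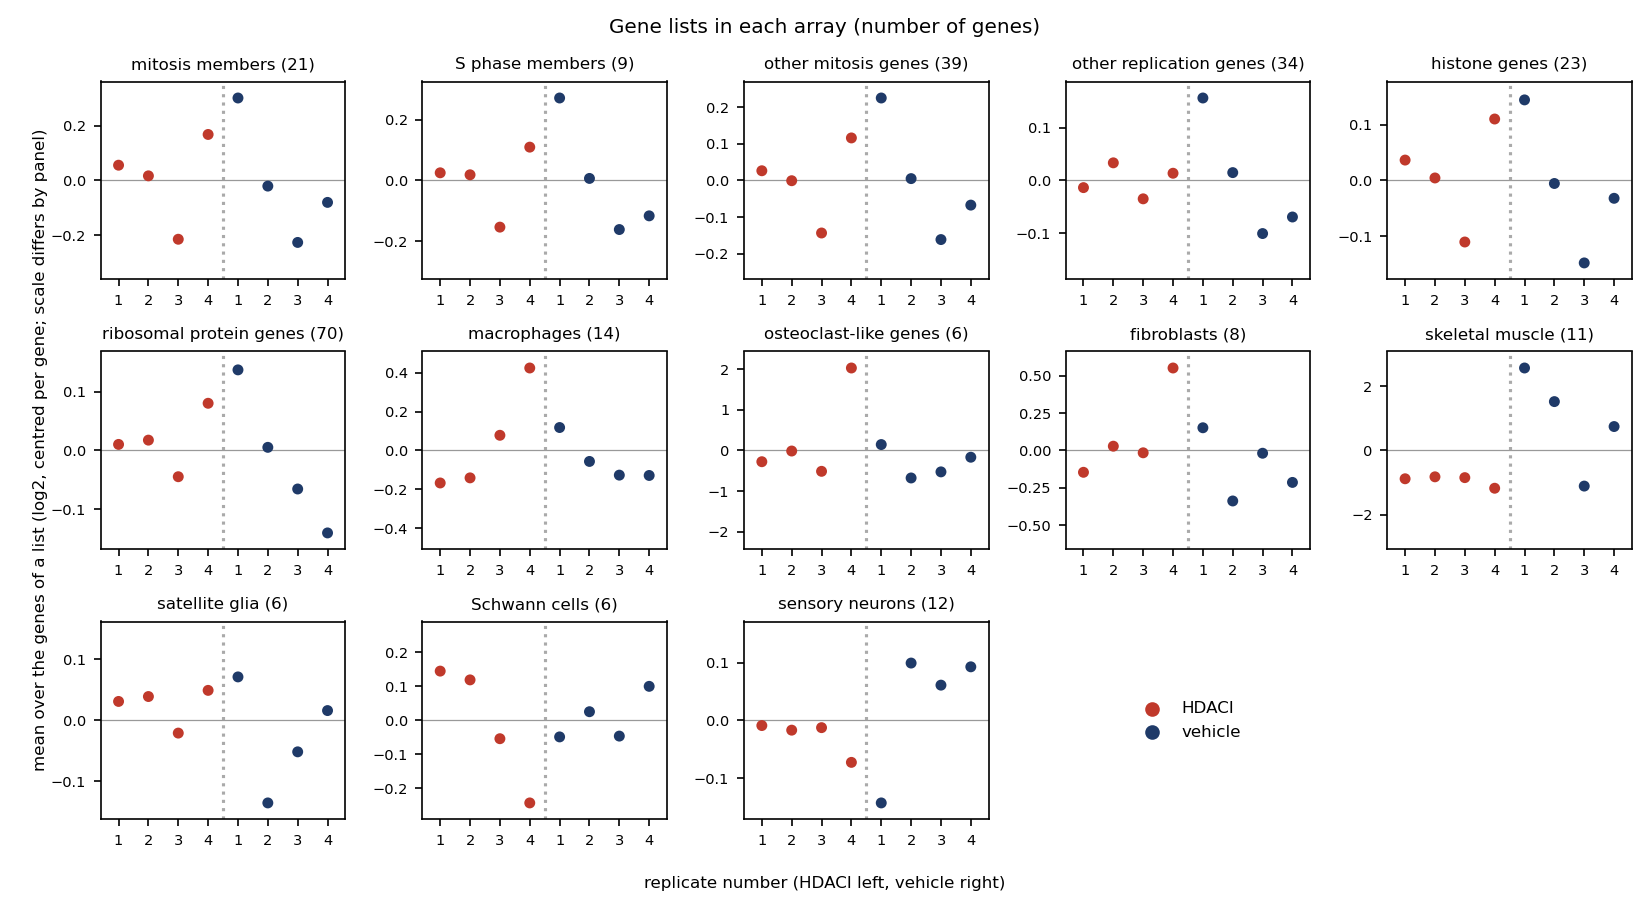
Each panel is 1 gene list, and each point the mean of its genes in 1 array (log2, each gene centred on its own mean, scales differ by panel), with HDACI replicates 1 to 4 in red on the left and vehicle replicates 1 to 4 in dark blue on the right. The further mitosis genes and histone genes repeat the pattern of the members, while skeletal muscle is high in 3 vehicle arrays and the osteoclast-like genes in HDACI replicate 4.

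The spread of a whole array moved with the cell cycle genes too. The SD over all 28826 probe sets lay between 2.06 and 2.10 in the 8 arrays and had r = 0.702 with the mitosis mean and 0.764 with the S phase mean. With that SD regressed out of each gene, the median r was 0.878 for mitosis pairs, 0.720 for S phase pairs and 0.783 for mixed pairs. The mean of 70 ribosomal protein genes, added after the values had been seen, had r = 0.843 with the mitosis mean. The median r of these genes with the mitosis mean was 0.723, above the 0.603 of the further replication genes with that same mean.

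Most measured members moved together, and the promoters of the members were searched for the short motifs named above. RefSeq (GRCr8) gave a promoter for 26 of the 34 members, 19 mitosis and 7 S phase genes, of which 3 (Mki67, Cenpf and Mcm3) were not measured on the arrays, and the 250 bases before the start of each gene were read on both strands. CCAAT was present in 15 of 19 mitosis promoters (78.9%) and 5 of 7 S phase promoters (71.4%), against 34.02% of all 33469 promoters. The CHR letters TTTGAA were present in 8 of 19 mitosis promoters (42.1%), against 16.2% of all, and in 1 of 7 S phase promoters. In all 8 the promoter also held CCAAT, a pairing found in 5.87% of all promoters. The E2F letters TTTNNCGC, in which N is any base, were present in 4 of 7 S phase promoters (57.1%) and 3 of 19 mitosis promoters (15.8%), against 4.11% of all. The median GC content was 57.6% and 56.4% for the 2 phases and 51.2% over all promoters. Bub1, Bub1b, Melk and Aurka held none of these motifs. Their r with the other mitosis genes was 0.976, 0.972, 0.922 and 0.313. A match describes letters and shows no bound factor, and a link between motifs and covariation was not tested.

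The promoters of the 3 genes of each phase most like the rest of their phase, among those with a match, are given as the 250 bases before the start, read 5′ to 3′ on the strand of the gene, with every motif match in capitals (CCAAT reads ATTGG on the other strand). Kif11 lies at chr1:244536617-244536866 (plus strand), Prc1 at chr1:143659231-143659480 (plus strand), Plk1 at chr1:186147408-186147657 (plus strand), Mcm6 at chr13:42404353-42404602 (minus strand), Pcna at chr3:139955821-139956070 (minus strand) and Rrm1 at chr1:166235654-166235903 (plus strand).
Kif11: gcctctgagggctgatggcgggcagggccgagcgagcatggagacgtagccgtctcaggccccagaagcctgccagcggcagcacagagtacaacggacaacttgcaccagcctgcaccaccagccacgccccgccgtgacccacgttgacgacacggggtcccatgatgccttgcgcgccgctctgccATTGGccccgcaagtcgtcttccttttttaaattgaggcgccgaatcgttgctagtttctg
Prc1: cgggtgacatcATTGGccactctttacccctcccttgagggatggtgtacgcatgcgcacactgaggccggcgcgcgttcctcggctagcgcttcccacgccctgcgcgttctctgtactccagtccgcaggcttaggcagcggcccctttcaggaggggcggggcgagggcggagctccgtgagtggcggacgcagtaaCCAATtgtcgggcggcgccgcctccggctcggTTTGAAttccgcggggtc
Plk1: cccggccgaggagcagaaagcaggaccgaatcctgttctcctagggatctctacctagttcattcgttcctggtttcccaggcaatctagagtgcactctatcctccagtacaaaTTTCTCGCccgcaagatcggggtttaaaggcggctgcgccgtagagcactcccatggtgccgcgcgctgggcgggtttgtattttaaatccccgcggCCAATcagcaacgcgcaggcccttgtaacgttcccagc
Mcm6: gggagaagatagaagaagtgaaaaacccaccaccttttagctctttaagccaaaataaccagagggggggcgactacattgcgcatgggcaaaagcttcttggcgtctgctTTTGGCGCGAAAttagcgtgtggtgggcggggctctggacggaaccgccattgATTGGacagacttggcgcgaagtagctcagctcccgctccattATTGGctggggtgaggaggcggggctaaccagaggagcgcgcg
Pcna: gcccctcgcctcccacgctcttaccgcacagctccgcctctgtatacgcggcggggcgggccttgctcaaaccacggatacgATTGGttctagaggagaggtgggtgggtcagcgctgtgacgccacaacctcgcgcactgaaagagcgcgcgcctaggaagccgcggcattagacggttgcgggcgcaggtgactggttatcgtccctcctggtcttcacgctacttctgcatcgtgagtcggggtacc
Rrm1: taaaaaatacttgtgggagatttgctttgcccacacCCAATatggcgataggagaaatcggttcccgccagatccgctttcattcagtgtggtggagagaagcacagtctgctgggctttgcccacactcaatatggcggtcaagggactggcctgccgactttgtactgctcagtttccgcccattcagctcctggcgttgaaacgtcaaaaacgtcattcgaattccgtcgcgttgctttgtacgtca

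Prc1 held CCAAT boxes with their first letters 239 and 50 bases before the start, and the CHR letters at 18. Plk1 held CCAAT at 38 and E2F letters at 135, and Kif11 held 1 CCAAT box at 61. Mcm6 held E2F letters on both strands, overlapping, at 139 and 135, with CCAAT boxes at 86 and 43. Pcna and Rrm1 had 1 CCAAT box each, at 168 and 214, and none of the other motifs in this window.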

How the data were processed

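RNA of 8 injured L5 DRG, 4 from HDACI and 4 from vehicle rats, was hybridized to Affymetrix Rat Gene 1.0 ST arrays. The deposited values, log2 signals, had been made by the authors with RMA in the Bioconductor package oligo (background correction, quantile normalization between arrays, summary per probe set); the versions are not given in the sources used here. This normalization hides a change shared by all transcripts and compresses differences of dim probe sets. Arrays have no read depth, and their number limits the precision.

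Groups and replicate numbers came from the sample titles. Gene symbols came from the platform annotation: of 28826 probe sets 15209 carried 1 symbol, 306 several and 13311 none. For differences, lmFit and eBayes of limma 3.58.1 were run in R 4.3.3 (two-sided, no covariate), adjusted by Benjamini-Hochberg over all 28826 probe sets. Correlations used Python 3.11.15 with NumPy 2.4.6 and pandas 2.3.3, and the scripts were checked on simulated data. Same-numbered arrays of the groups deviated from their group means with r between -0.28 and 0.01, so the numbers were not taken to pair the samples.

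The members, the phase of each, the other lists and the tests were chosen with earlier results of these data known. The values of every array were given for the 4 members of each phase with the smallest p, the 3 with the largest SD, and Top2a, Cdk1, Pcna and Mcm2 by role, and beside these for Ube2c, chosen after its values were seen. For each other cell cycle list up to 2 genes with the smallest p were named, with Cdkn1a by role, and the 10 genes nearest to each phase mean. Alternatives were leaving out each array, the replicate number as a block, median centring, cyclic loess, an intensity trend, the mean over probe sets of a gene, a filter at the 30th percentile, a skeletal muscle score, Spearman correlation, group means removed and shorter phase lists. A second quantile normalization, the array SD as a covariate and leaving out the 2 arrays highest in the members were added after seeing the data.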

Additional observations from a re-analysis of the deposited data

Results flagged for a closer look

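In 2 of the 60 groups of 4 arrays tested (30 genes in 2 groups), 1 array stood apart from the other 3, where chance alone would give about 3. Aurka measured 7.25 in vehicle replicate 1, against 7.15 to 7.16 in the other vehicle arrays, a gap of 0.897 of the group's range. Rrm2 measured 9.76 in HDACI replicate 3, against 10.12 to 10.18 in the other HDACI arrays, a gap of 0.839 of the range. Vehicle replicate 1 was the array highest in most members and HDACI replicate 3 was among the lowest.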

How the results depend on the processing

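With 4 arrays a group, differences inside the confidence intervals given above remained compatible with the values. No member passed an adjusted p of 0.05 in any of the 17 other settings (smallest adjusted p 0.809), and 28 of 30 members changed sign in at least 1 of them. The count of probe sets with an unadjusted p under 0.05 was 708 to 1758 with 1 array left out, highest without vehicle replicate 1, and 0 passed adjustment. The median difference moved to 0.24 (mitosis) and 0.21 (S phase) with the muscle score as a covariate. The median correlation of mitosis pairs was 0.878 with the array SD regressed out and 0.863 without vehicle replicate 1 and HDACI replicate 4, and that of mixed pairs was 0.734 without these 2 arrays. Without those arrays 3 pairs no longer passed: Cdk1 with Ccnb1 (r = 0.828), Pcna with Tyms (0.626) and Top2a with Pcna (0.956). With 1 array left out, r was 0.561 to 0.849 for Top2a with Mcm2 and 0.262 to 0.890 for Mcm2 with Mcm5, and both passed in some of these settings. For Top2a with Ckm it was 0.0752 (without vehicle replicate 1) to 0.697 (without HDACI replicate 4), and for Top2a with Cd68 0.194 (without HDACI replicate 4) to 0.517 (without HDACI replicate 3), and -0.416 without vehicle replicate 1 and HDACI replicate 4; neither pair passed in these settings. With the replicate number as a block, the median differences stayed at 0.0035 and 0.0020, 803 probe sets had an unadjusted p under 0.05, and the median correlations were 0.908 (mitosis), 0.831 (S phase) and 0.90 (mixed); r was 0.0666 for Mcm2 with Mcm5 and 0.849 for Top2a with Cd68. The cause of these shifts was not tested. The other settings moved the median differences and median correlations by less than their spread.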

Other observations

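The regulators of the cycle outside S phase and mitosis followed the members to differing degrees. Over the 8 arrays the mean of 8 E2F and pocket proteins had r = 0.802 and rho = 0.929 with the mitosis mean. For 6 G1 cyclins and kinases r was 0.655 and rho 0.690, and for 6 CDK inhibitors r was 0.420 and rho 0.5. For 3 genes of the MuvB core r was -0.164 and rho 0.0476. Of 6 G1 cyclins and kinases, 5 were nominally higher in HDACI and 1 lower, while 46.7% of all probe sets were lower. None of the 6 had an unadjusted p under 0.05 by limma, against 3.55% of all probe sets. Of these 6 genes 0 had an r over 0.9 with the mitosis mean, against 0.836% of all genes outside the members. At these shares a list this short would be likely to hold none. Ccnd1, cyclin D1, which responds to growth factors, differed by 0.10 ± 0.06 (log2, SE, unadjusted p = 0.124 by limma), and Cdk6, its kinase partner, by 0.07 ± 0.05 (unadjusted p = 0.191). Of 8 E2F and pocket proteins E2f8, which represses E2F targets late in S phase, was the 1 with an unadjusted p under 0.05, as 3.55% of all probe sets had, at a difference of 0.12 ± 0.05 (unadjusted p = 0.0366, adjusted p = 1.0 by limma), while Rbl2, a pocket protein of resting cells, differed by 0.05 ± 0.05. The MuvB core, which recruits repressors or activators to CHR sites, had 3 measured genes. Among them Rbbp4 had r = 0.766 with the mitosis mean over 8 arrays and Lin37 had r = -0.892.

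Cdkn1a, the CDK inhibitor p21, which HDAC inhibitors raise in many cultured cells, was nominally lower in HDACI. It measured 9.93, 9.94, 9.85 and 9.996 in HDACI replicates 1 to 4 and 10.06, 10.64, 10.06 and 10.07 in vehicle replicates 1 to 4. The HDACI arrays all lay below the vehicle arrays, and 2.1% of all probe sets likewise had groups that did not overlap. Vehicle replicate 2 stood far above the rest. The difference was -0.28 ± 0.13 (log2, SE; unadjusted p = 0.0560, adjusted p = 1.0 by limma), -0.13 ± 0.05 without vehicle replicate 2 and -0.20 ± 0.18 with the muscle score as a covariate. Its r with the mitosis mean was 0.04. Cdkn1c, the CDK inhibitor p57, differed by 0.12 ± 0.06 (unadjusted p = 0.0696).

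The 3 members with a second probe set gave a partial check of the values. For Rrm2 the probe sets had r = 0.963 with each other over 8 arrays, for Rrm1 0.673 and for Ccnb2 0.468. The second Rrm1 probe set was dim (mean 5.99). The second Ccnb2 probe set was highest in HDACI replicate 4 (8.52) and vehicle replicate 2 (8.39) and not in vehicle replicate 1 (8.15), so the 2 probe sets of this gene disagreed.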
